A study of Sus scrofa with 6 samples.

Results

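The genes described here make and use glutathione and thioredoxin, remove superoxide and peroxide, or form superoxide. They were chosen by symbol: the glutathione S-transferases (GST, MGST), glutathione peroxidases (GPX), peroxiredoxins (PRDX), thioredoxins and thioredoxin-like proteins (TXN), glutaredoxins (GLRX), superoxide dismutases (SOD), catalase (CAT), haem oxygenases (HMOX), quinone reductases (NQO), the enzymes of glutathione synthesis and reduction (GCLC, GCLM, GSS, GSR) and the subunits and relatives of the NADPH oxidase (CYBA, NCF, DUOX). The rule found 53 of the 6765 genes with a value, and used no measurement. IPEC-1 and IPEC-J2 are spontaneously immortalised epithelial cell lines from the porcine small intestine. Both were untreated and grew on membrane inserts in a medium with foetal calf serum and epidermal growth factor. RNA from 3 cultures of each cell line (500 ng each) was hybridised to 6 Affymetrix Porcine Genome Arrays. The labels give 7 days of culture and 1 cell bank number for both lines, whereas the methods give a longer culture and separate bank numbers. Each line is a single cell line, so differences are between these lines and not between parts of the gut.

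Glutathione is a small thiol that glutaredoxins, glutathione peroxidases and glutathione S-transferases use as reductant or conjugate, and glutathione reductase restores it with NADPH. Thioredoxin does the same for protein disulfides and for peroxiredoxins, with thioredoxin reductase as its NADPH-dependent partner. Superoxide dismutases turn superoxide into hydrogen peroxide, which catalase and the peroxidases remove. NADPH oxidases and dual oxidases make superoxide or peroxide on purpose, and in the gut they act in defence at the epithelial surface. Many of these genes are known targets of the transcription factor NRF2.

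Values are deposited signals read as log2, averaged over the probe sets of a gene, with a floor of exactly 4.00 that carries no order. Differences are IPEC-J2 minus IPEC-1 on the log2 scale, and a gene was called when its limma p, adjusted over all 6765 genes, was under 0.05. A probe set at the floor on 2 arrays of a line can still reach about 7.85 (IPEC-1) or 7.78 (IPEC-J2) on the third. The size of a difference is therefore uncertain where the signals of a probe set in a line lie under this level. For a line at the floor, a fold is given only against this level. The level is a 95th percentile that some signals exceed, so such a fold is no strict bound. Between 40.5 and 48.3% of probe sets were at the floor on each array. Arrays of the same line correlated at 0.969 to 0.988, arrays of different lines at 0.877 to 0.907. All 11 epithelial markers with a value were above the floor on at least 1 array, and 4 of them were higher and 1 lower in IPEC-J2. EPCAM, KRT8, KRT18 and KRT19 lay above 12 on every array, although KRT19 was lower in IPEC-J2 (difference -0.80). VIL1 and CLDN3 were higher there, and in IPEC-1 VIL1 had 8.45, 4.00 and 8.53 and CLDN3 was at the floor. The gene signals of CLDN3 in IPEC-J2 were 6.185, 6.235 and 6.005, which is 1.16-fold higher against the level of 7.85. The labels carry culture notes that join IPEC-1 replicate 1 with IPEC-J2 replicate 3 (note A) and IPEC-1 replicate 2 with IPEC-J2 replicate 1 (note B). Where a fit with these notes as a block ended a call, its adjusted p is given. This fit leaves the differences as they are and estimates the error anew. It has 2 residual degrees of freedom, whereas the main fit has 4, so a call can end without a larger error. Among the described genes whose call ended, the error was smaller for GLRX2, GLRX5, GSTO1, NQO1, PRDX4 and TXN. It was larger for GSS, MGST1 and TXNDC9.

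Of the 53 genes, 17 were called: 14 (26.4%) were up-regulated and 3 (5.66%) down-regulated in IPEC-J2 relative to IPEC-1. Over all genes, 9.46% were up-regulated and 11.2% down-regulated. The up-regulated genes were CYBA, GSTA1, GLRX, NQO1, PRDX6, SOD2, TXN, GSTO1, GSR, GSS, GPX4, GLRX2, TXNDC9 and TXNDC15. MGST1, GLRX5 and PRDX4 were down-regulated. The differences were mostly moderate, since 6 of the 17 exceeded 2-fold. Another 27 genes were measured and not called, 22 of them with a difference smaller than 0.5 in size. The last 9 genes (DUOX2, GPX3, GPX6, GPX7, GSTM3, HMOX1, NCF1, NCF4 and SOD3) were at the floor on every array. Over the 44 genes above the floor the median difference was 0.18, and over all 5513 such genes it was -0.05. The 3 arrays of IPEC-J2 lay above the 3 of IPEC-1 for 19 of the 53 genes (35.8%) and below for 9 (17%), where over all genes it was 16.2% above and 22.5% below. With 3 arrays a line the exact permutation test stops at p = 0.1, so the tests rest on limma. All 17 called genes had the same sign within note A, within note B and between the other 2 arrays. The counts depended on single arrays: 7 were higher and 2 lower without IPEC-J2 replicate 2, 7 and 1 without IPEC-J2 replicate 3, and 9 and 3 without IPEC-1 replicate 3. The shares of all genes in these fits were also smaller, at 5.76% higher and 8.46% lower, 5.25% and 6.16%, and 6.86% and 7.3%. CYBA, GLRX, GSTA1, GPX4, PRDX6, TXNDC15 and MGST1 were called in each of the 6 fits that left out 1 array. With the culture notes as a block 8 of the 53 were higher and 0 lower, where over all genes it was 5.38% and 5.6%. At an unadjusted p under 0.05 this limma fit had 15 of the 53 higher and 7 lower, beside 977 higher and 1148 lower of all 6765 genes.

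**Figure D1:**
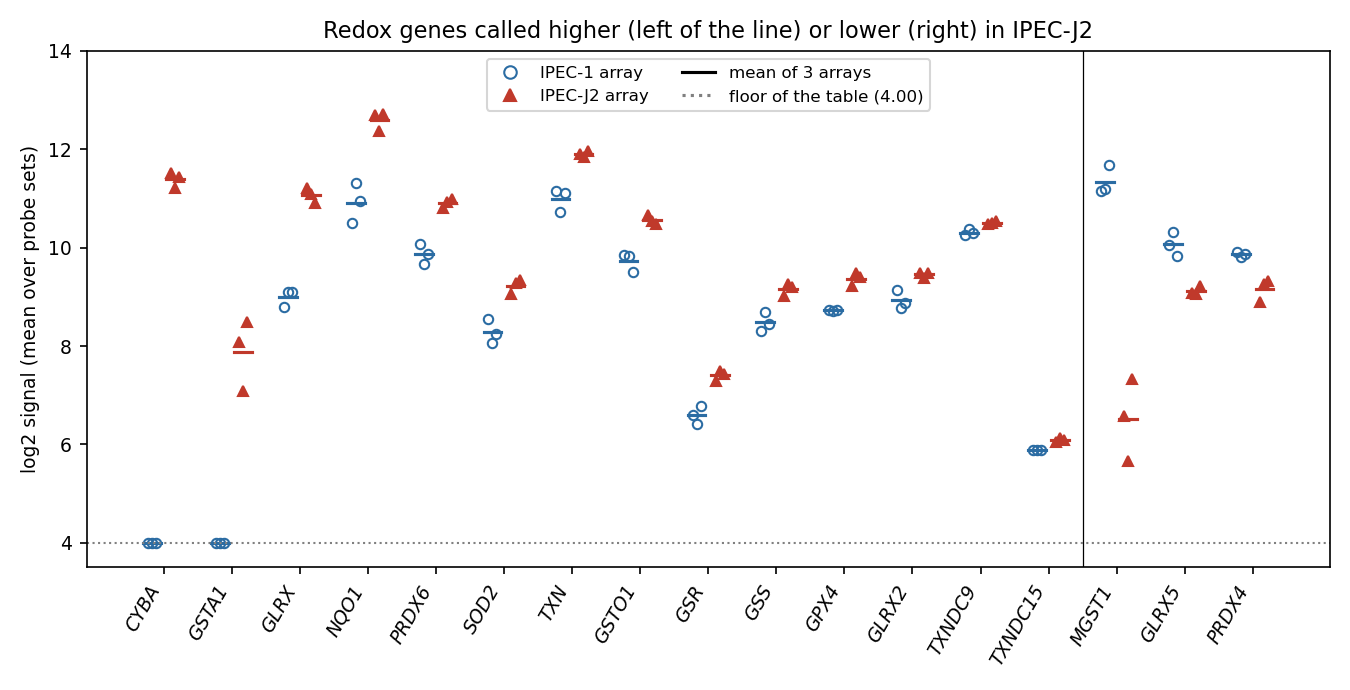
Log2 signal of the 17 called genes on each of the 6 arrays (IPEC-1 as open circles, IPEC-J2 as triangles, short lines for the mean of 3 arrays, dotted line for the floor of 4.00). The 14 genes left of the vertical line were called higher in IPEC-J2 and the 3 on the right lower, and the arrays of the lines do not overlap for any of them.

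The largest difference belonged to CYBA, the small membrane subunit that stabilises the catalytic subunits of the NADPH oxidases. Its signal was 4.00 on all 3 arrays of IPEC-1 and 11.51, 11.22 and 11.44 on those of IPEC-J2. For 8.43% of all genes, every array of one line was at the floor and at least 1 array of the other was above it. Against the level of 7.85, CYBA in IPEC-J2 was 11.6-fold higher (adjusted p 1.23e-05). The fitted difference of 7.39 ± 0.083 (SE) rests on the floor value and is no estimate of the fold. The floor sets the spread in IPEC-1 to 0, so the SE and the adjusted p hold no measured spread of that line. Each array measures the RNA of a whole culture, so fewer cells with a transcript and less transcript per cell cannot be told apart. CYBA is abundant in phagocytes, so leukocyte markers were read beside it. Of 8 leukocyte markers with a value, PTPRC, ITGAM, ITGB2 and CD4 were at the floor on every array. CD14 and CD163 were above it on IPEC-J2 replicate 3 alone (4.735 and 4.78). CD8A was above it on IPEC-1 replicate 2 (5.79) and IPEC-J2 replicate 1 (5.60), and none of these 3 was called. The mean signal of the 8 lay between 4.2 and 4.49 in IPEC-1 and between 4 and 4.2 in IPEC-J2, and CD3E was lower in IPEC-J2, where it was at the floor (5.60, 6.13 and 6.05 in IPEC-1, under the level of 7.85). Among 6 fibroblast markers THY1 was higher in IPEC-J2 (9.38, 9.82 and 9.46 against the floor), while COL3A1, DCN and LUM were at the floor on all arrays. Of 5 endothelial markers 4 were at the floor everywhere and PECAM1 was lower in IPEC-J2 (5.88, 5.65 and 5.71 in IPEC-1, under the level of 7.85). The part of THY1-bearing cells in the differences was not tested.

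The other oxidase genes showed no such difference. NCF1 and NCF4, the cytosolic subunits that join the phagocyte oxidase on activation, were at the floor on every array. DUOX2, the dual oxidase induced in inflamed gut epithelium, was at the floor as well. DUOX1, its close relative, had signals of 6.63, 7.13 and 6.87 in IPEC-1 against 6.15, 6.71 and 4.00 in IPEC-J2. The groups overlapped, and the difference of -1.26 was not called (adjusted p 0.385). Without IPEC-J2 replicate 3, the array at the floor, the difference was -0.45. CYBB and the NOX genes are not analysed here.

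Among the enzymes of glutathione synthesis and reduction, 2 of 4 were up-regulated in IPEC-J2. GSR, the reductase that restores glutathione, had gene signals of 6.60, 6.41 and 6.78 in IPEC-1 against 7.29, 7.50 and 7.42 in IPEC-J2. Its difference was 0.81 ± 0.12 (SE, adjusted p 0.0144). This mean holds 1 probe set that was at the floor throughout. Of the others, one differed by 1.43 (8.87 against 10.30 on average) and one by 1.01, with signals in IPEC-1 that lay under the level of 7.85. GSS, which adds glycine in the last step of synthesis, had 8.31, 8.69 and 8.46 in IPEC-1 against 9.03, 9.27 and 9.20 in IPEC-J2. The arrays did not overlap, and GSS was 1.60-fold higher in IPEC-J2 (adjusted p 0.0274, and 0.128 with the culture notes as a block). The rate-limiting step is catalysed by GCLC with its modifier GCLM, and neither was called in the main fit. GCLC differed by 0.37 (adjusted p 0.164) and GCLM by 0.24 (adjusted p 0.374). Of the 5 probe sets of GCLC, 2 were at the floor on all arrays. GSR lost its call without IPEC-1 replicate 1, IPEC-J2 replicate 2 or IPEC-J2 replicate 3, with adjusted p up to 0.0634. GSS lost it without IPEC-1 replicate 1 or 3 or IPEC-J2 replicate 2 or 3, with adjusted p up to 0.102.

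The glutathione S-transferases, which conjugate glutathione to electrophiles, moved in both directions. MGST1, a membrane-bound transferase of the endoplasmic reticulum and the outer mitochondrial membrane, had signals of 11.15, 11.19 and 11.68 in IPEC-1. In IPEC-J2 its signals were 6.58, 5.67 and 7.32, far below every array of IPEC-1. MGST1 was 28.2-fold lower in IPEC-J2 (difference -4.82 ± 0.48 SE, adjusted p 0.00602). Its signals in IPEC-J2 lay below the level of 7.78 that floor probe sets of that line can reach, against which the fold was 11.8. The difference ranged from -6.01 to -3.83 within the culture notes and the third pair, and the adjusted p was 0.0581 with the notes as a block. The remaining microsomal enzyme, MGST3, had a difference of -0.10 (adjusted p 0.707).

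GSTA1, an alpha-class transferase of the gut and liver, went the opposite way. Its gene signal was 4.00 on the 3 arrays of IPEC-1 and 8.09, 7.08 and 8.48 in IPEC-J2. GSTA1 was called higher (adjusted p 0.00633), but this mean covers 3 probe sets of unequal signal, so no fold is given for it. As for CYBA, the p holds no measured spread of IPEC-1. The brightest read 10.79, 9.17 and 10.65 in IPEC-J2 and the floor in IPEC-1, 5.11-fold higher against the level of 7.85. The next was 2.21-fold higher against the same level, and the last was above the floor on 1 array. A probe set of GSTA1 is annotated to more than 1 transcript record, and close alpha-class relatives cannot be separated by it. GSTO1, an omega-class enzyme that reduces dehydroascorbate, had 9.85, 9.83 and 9.51 in IPEC-1 against 10.67, 10.55 and 10.48 in IPEC-J2. GSTO1 was 1.79-fold higher in IPEC-J2 (adjusted p 0.0138, 0.0631 with the culture notes as a block and 0.052 without IPEC-J2 replicate 2).

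GSTK1, a kappa-class enzyme of mitochondria and peroxisomes, had a difference of 2.65 that was not called (adjusted p 0.236). Its signals in IPEC-1 were 4.00, 7.88 and 4.00, and those in IPEC-J2 7.88, 7.95 and 8.01. IPEC-1 replicate 2 therefore reached the level of IPEC-J2, and the groups touched. Without this array GSTK1 was called (adjusted p 0.000152), with a difference of 3.95, and both rest on the floor value in IPEC-1. The signals of IPEC-J2 exceeded the level of 7.85 by 0.10 on average. GSTA4, an alpha-class enzyme for products of lipid peroxidation, lay just outside the threshold with a difference of -0.47 (adjusted p 0.0504). Of its 2 probe sets 1 was at the floor on all arrays. The other differed by -0.93 (10.44 against 9.51 on average, adjusted p 0.076 over all probe sets). GSTA4 was called lower in some other fits, such as those without floor genes or with the brightest probe set per gene. GSTZ1, an enzyme of tyrosine breakdown, differed by -0.04. GSTM3 was at the floor on all arrays.

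Glutaredoxins reduce disulfides between proteins and glutathione, and 3 of the 4 were called. GLRX, the cytosolic enzyme, had signals of 8.79, 9.09 and 9.10 in IPEC-1 against 11.22, 11.09 and 10.91 in IPEC-J2. All arrays of IPEC-J2 were higher, by 4.23-fold (difference 2.08 ± 0.13 SE, adjusted p 0.00157). Its 2 probe sets gave 2.11 and 2.05. GLRX2, a mitochondrial glutaredoxin, had 9.14, 8.77 and 8.87 in IPEC-1 against 9.49, 9.39 and 9.49 in IPEC-J2. It was 1.44-fold higher in IPEC-J2 (adjusted p 0.037). GLRX5, which carries iron-sulfur clusters in mitochondria, had 10.06, 10.31 and 9.83 in IPEC-1 against 9.08, 9.06 and 9.21 in IPEC-J2. It was 1.93-fold lower in IPEC-J2 (adjusted p 0.0154). GLRX3, a cytosolic protein with a role in iron handling, differed by 0.14 and its groups overlapped. With the culture notes as a block the adjusted p was 0.0941 for GLRX2 and 0.0668 for GLRX5. GLRX2 kept its call in 1 of the 6 fits without 1 array (without IPEC-1 replicate 1, adjusted p up to 0.128 in the others). GLRX5 kept it without IPEC-1 replicate 2 or 3, with adjusted p up to 0.0595 in the others.

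Of the 7 glutathione peroxidases, GPX4 alone was called. GPX4 reduces lipid hydroperoxides in membranes and is known as a guard against ferroptosis. It read 8.73, 8.71 and 8.74 in IPEC-1 against 9.22, 9.48 and 9.41 in IPEC-J2. The lines did not overlap, and GPX4 was 1.56-fold higher in IPEC-J2 (difference 0.64 ± 0.073 SE, adjusted p 0.00824). The brighter of its 2 probe sets differed by 0.72, and the other lay under the levels of 7.85 and 7.78 in both lines. GPX1, the common cytosolic peroxidase, had a difference of -0.28 that missed the threshold (adjusted p 0.0716) although its arrays did not overlap. GPX2, the peroxidase of the gut epithelium, had overlapping signals of 7.18, 7.70 and 8.23 in IPEC-1 against 7.27, 7.50 and 7.12 in IPEC-J2. GPX5 was above the floor on 1 array of IPEC-J2. GPX3, GPX6 and GPX7 were at the floor throughout.

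In the thioredoxin system TXN, the main cytosolic thioredoxin, was called and its reductases were not. TXN had gene signals of 11.14, 10.72 and 11.10 in IPEC-1 against 11.91, 11.85 and 11.96 in IPEC-J2. It was 1.89-fold higher in IPEC-J2 (difference 0.92 ± 0.13 SE, adjusted p 0.0146), and its 2 probe sets gave 1.13 and 0.72. Its call was lost with the culture notes as a block (adjusted p 0.0669), without IPEC-J2 replicate 2 (0.0508) and without IPEC-J2 replicate 3 (0.0644). TXN2, the mitochondrial thioredoxin, differed by 0.27 (adjusted p 0.111). TXNIP, which binds and inhibits thioredoxin, differed by -0.07. TXNRD1, the cytosolic reductase, differed by 0.16 (adjusted p 0.64), but its 3 probe sets disagreed. One of them read 8.79, 8.78 and 8.63 in IPEC-1 against 9.33, 9.36 and 9.47 in IPEC-J2 (difference 0.65, adjusted p 0.00865 over all probe sets), and the others differed by -0.01 and -0.16. TXNRD1 was the single gene among the 10 with several live probe sets whose probe sets differed in sign. TXNRD3, a reductase known from testis, was at the floor on 1 array of IPEC-1 and 2 of IPEC-J2 (difference -0.56, adjusted p 0.75).

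**Figure D2:**
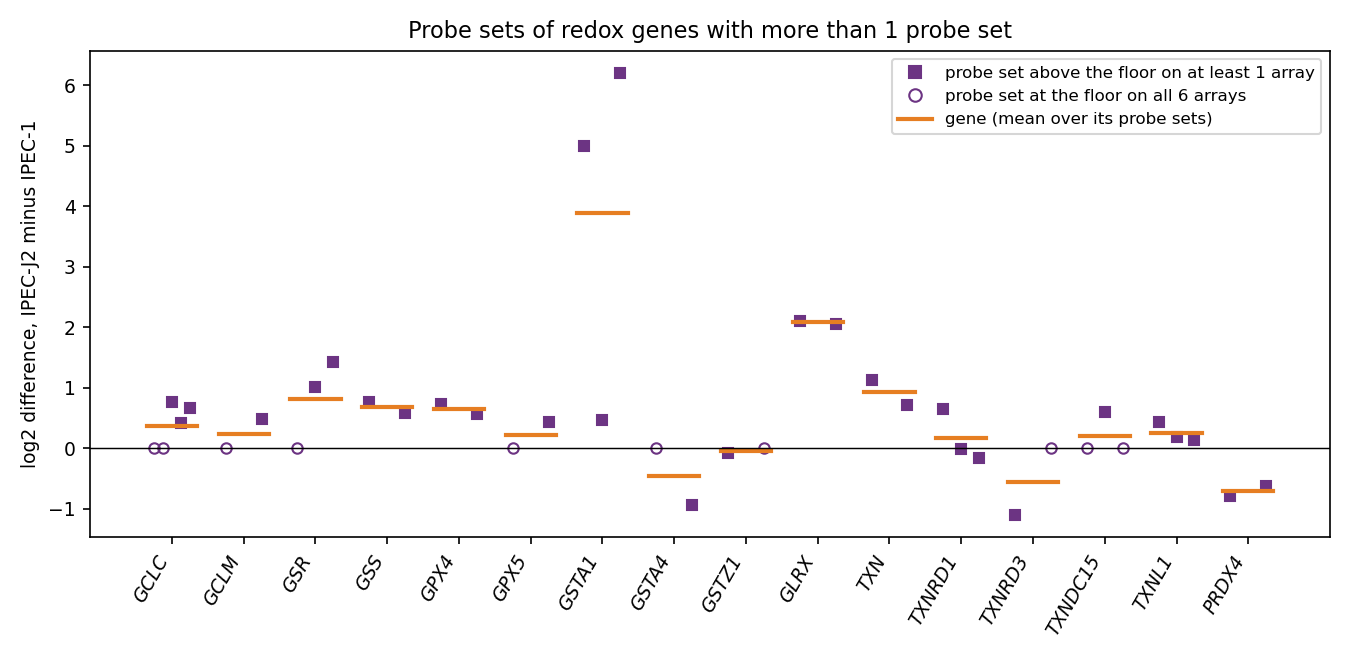
Log2 difference (IPEC-J2 minus IPEC-1) of each probe set of the 16 genes that have more than 1 probe set and signal on at least 1 array. Squares are probe sets with signal, open circles are probe sets at the floor on all 6 arrays, and bars are the gene means, which lie nearer 0 than the live probe sets of GSR, TXNDC15 and GSTA4.

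The thioredoxin-like proteins share the thioredoxin fold and have varied roles. TXNDC9, a partner of the cytosolic chaperonin, had signals of 10.25, 10.37 and 10.30 in IPEC-1 against 10.47, 10.50 and 10.55 in IPEC-J2. The difference of 0.20 (adjusted p 0.0337) was small. It was lost with the culture notes as a block (0.151), when genes without signal on any array were left out of the fit, and in 5 of 6 fits without 1 array (all but IPEC-1 replicate 2), with adjusted p up to 0.109. TXNDC15 had a gene difference of 0.20 as well (adjusted p 0.00679), with gene signals of 5.89, 5.89 and 5.90 in IPEC-1 against 6.05, 6.12 and 6.10 in IPEC-J2. Of its 3 probe sets 2 were at the floor, and the third rose from 9.67 to 10.27 on average. This call was also lost when genes without signal were left out, when arrays were centred on their 75th percentile and with the trend and robust options of eBayes. TXNL4A, a spliceosome component, lay just outside the threshold (difference -0.39, adjusted p 0.0515). TXNDC12, TXNDC17 and TXNL1 differed by -0.06 to 0.25.

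Peroxiredoxins are abundant peroxidases that use thioredoxin or, in the case of PRDX6, glutathione. PRDX6 had signals of 10.08, 9.67 and 9.88 in IPEC-1 against 10.80, 10.93 and 10.99 in IPEC-J2. It was 2.04-fold higher in IPEC-J2 (difference 1.03 ± 0.12 SE, adjusted p 0.00927). PRDX4, the peroxiredoxin of the endoplasmic reticulum, had 9.92, 9.81 and 9.86 in IPEC-1 against 8.89, 9.26 and 9.32 in IPEC-J2. PRDX4 was 1.63-fold lower in IPEC-J2 (adjusted p 0.0281), and its brighter probe set differed by -0.80. The other lay under the levels of 7.85 and 7.78 in both lines. The call of PRDX4 was lost with the culture notes as a block (0.067) and in 5 of 6 fits without 1 array (all but IPEC-J2 replicate 1), with adjusted p up to 0.0932. The cytosolic PRDX1 and PRDX2 differed by -0.20 (adjusted p 0.0695) and -0.07. PRDX3, the mitochondrial member, differed by 0.50 (adjusted p 0.0753) and PRDX5 by -0.46 (adjusted p 0.109). Arrays of the lines did not overlap for PRDX1, PRDX3 and PRDX5, although none passed the threshold.

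SOD2, the manganese dismutase of mitochondria, had signals of 8.55, 8.07 and 8.24 in IPEC-1 against 9.05, 9.29 and 9.34 in IPEC-J2. All arrays of IPEC-J2 were higher, by 1.92-fold (difference 0.94 ± 0.16 SE, adjusted p 0.0218). SOD2 was called with the culture notes as a block, but not without IPEC-1 replicate 2 or 3 or IPEC-J2 replicate 2 or 3 (adjusted p up to 0.0837). SOD1, the cytosolic copper-zinc enzyme, differed by 0.03 with overlapping arrays. SOD3, the extracellular enzyme, was at the floor. CAT, the peroxisomal catalase, had 10.32, 10.93 and 10.77 in IPEC-1 against 9.68, 10.18 and 10.05 in IPEC-J2. Its arrays did not overlap, and the difference of -0.70 was not called (adjusted p 0.108).

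NQO1, the quinone reductase that is a classical NRF2 target, had signals of 10.49, 11.31 and 10.94 in IPEC-1. In IPEC-J2 they were 12.70, 12.36 and 12.71, higher than on any array of IPEC-1. NQO1 was 3.20-fold higher in IPEC-J2 (difference 1.68 ± 0.25 SE, adjusted p 0.0163). The adjusted p was 0.072 with the culture notes as a block, 0.0596 without IPEC-1 replicate 3, 0.0543 without IPEC-J2 replicate 1 and 0.0693 without IPEC-J2 replicate 3. Within note A the difference was 2.22 and within note B 1.39. Its relative NQO2 differed by 0.32 (adjusted p 0.106). HMOX1, the inducible haem oxygenase and another known NRF2 target, was at the floor throughout. The constitutive HMOX2 differed by -0.20 with overlapping arrays.

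**Figure D3:**
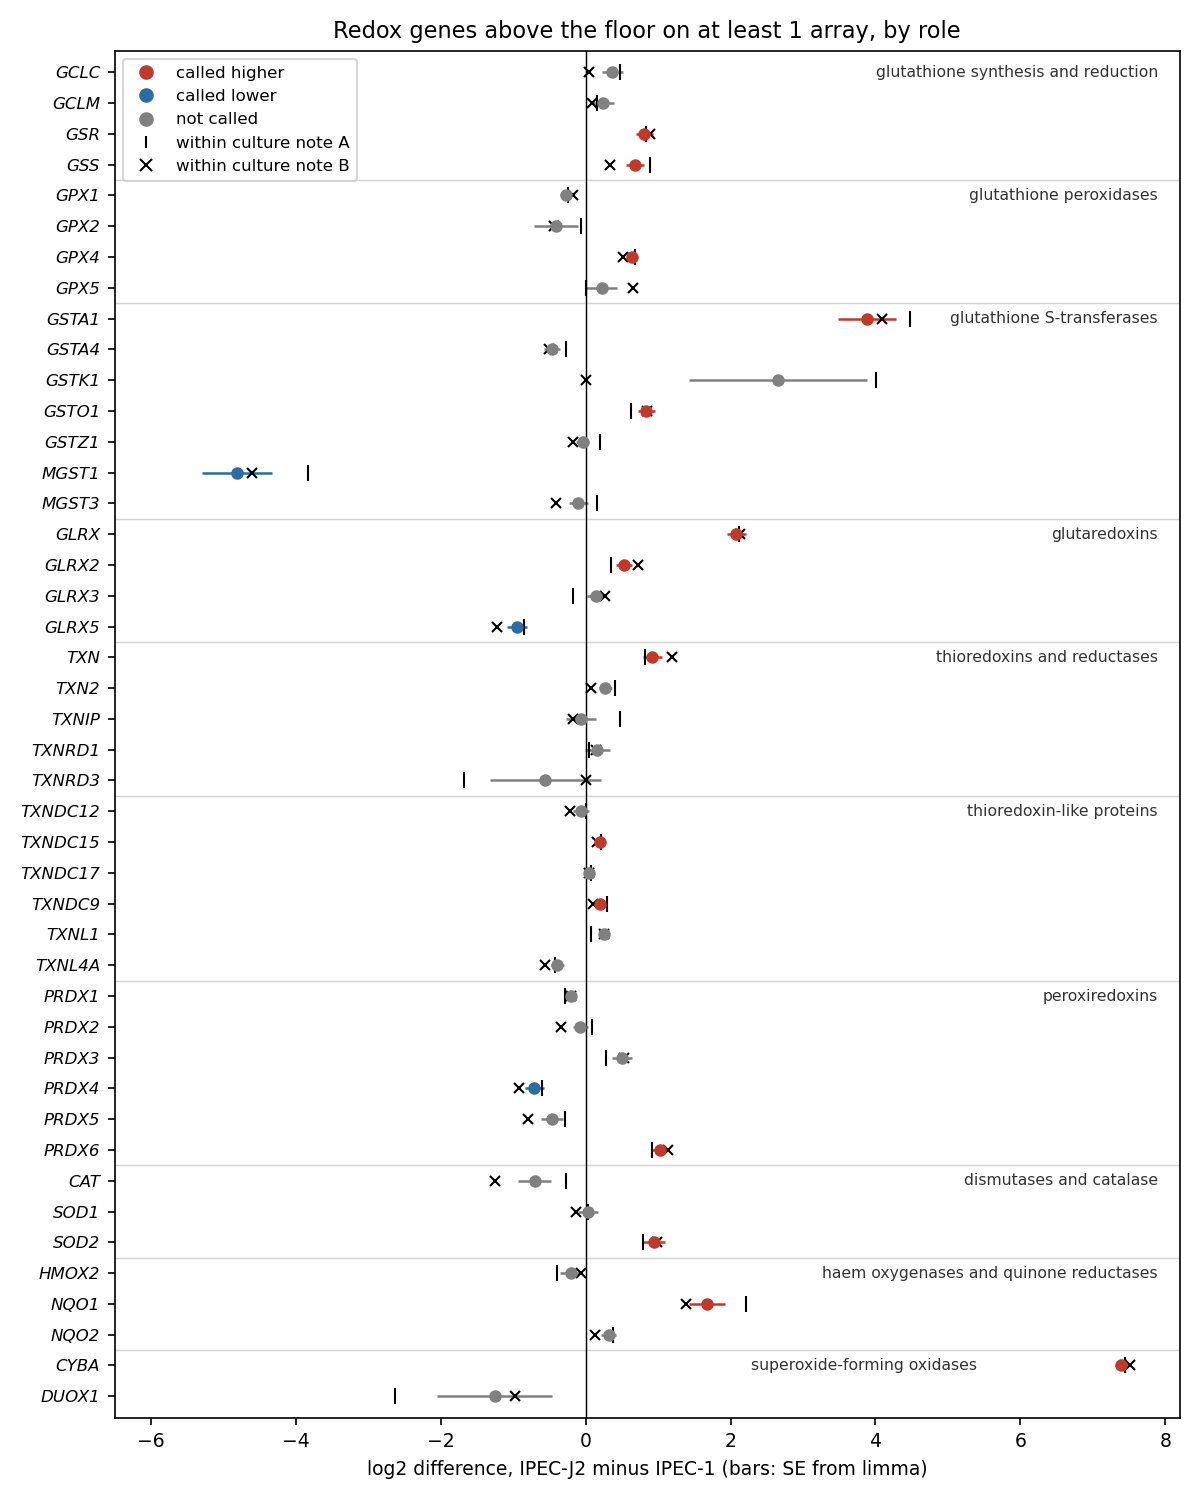
Log2 difference (IPEC-J2 minus IPEC-1) of the 44 genes above the floor on at least 1 array, ordered by role, with the SE from limma as bars and the differences within culture notes A and B as marks. Differences run from -4.82 for MGST1 to 7.39 for CYBA, where IPEC-1 is at the floor, and most of the genes not called lie close to 0.

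The genes were also read by features that the rule did not use, in groups chosen after the values had been seen. Of 5 proteins of the mitochondrial matrix, SOD2 and GLRX2 were higher and GLRX5 was lower in IPEC-J2, and the median difference was 0.50. Among 7 selenoproteins 5 were above the floor, with GPX4 higher and a median of -0.28. Of 7 proteins of the secretory pathway or the cell exterior 4 were above the floor, TXNDC15 being higher and PRDX4 lower, with a median of 0.07. MGST1 (difference -4.82, called lower), placed above in the endoplasmic reticulum and outer mitochondrial membrane, was not counted in this group. GSTK1 (2.65) and PRDX5 (-0.46), both not called, were not counted with the matrix proteins. Over all genes above the floor 11.6% were higher and 13.8% lower, and the groups are too small to compare with these shares.

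Partner genes outside the rule were read from 6 lists. Of 157 listed symbols, some of them older names of the same gene, 87 had a value and 72 were above the floor. Of these 11 (15.3%) were higher and 10 (13.9%) lower in IPEC-J2, with a median difference of 0.19. Over all genes above the floor 11.6% were higher and 13.8% lower, so the shares of partner genes called lay near the background. The median difference over all genes above the floor was -0.05, and that of the 44 described genes was 0.18.

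For glutathione supply and turnover, 17 of 32 listed genes were above the floor, of which 2 were higher and 3 lower (median 0.34). HAGH, the hydrolase that returns glutathione at the end of methylglyoxal detoxification, had 6.08, 6.17 and 5.97 in IPEC-1 against 8.06, 7.995 and 8.01 in IPEC-J2. The difference of 1.95 was called (adjusted p 0.000177), but its size is uncertain. One of its 2 probe sets differed by 0.62, and the other was at the floor in IPEC-1 and had 7.46, 7.15 and 7.21 in IPEC-J2, under the level of 7.85. SLC1A1, a glutamate and cysteine transporter, was higher by 1.01 (adjusted p 0.0136) as a mean over 5 probe sets, of which the brightest differed by 2.51, and SLC1A5, a glutamine transporter, had a difference of -1.14 (adjusted p 0.0269). ADH5, which breaks down S-nitrosoglutathione, differed by -0.46 (adjusted p 0.00517). The call of SLC1A5 was lost with the culture notes as a block (0.139) and in all fits without 1 array except that without IPEC-J2 replicate 2 (up to 0.0938), and that of SLC1A1 without IPEC-J2 replicate 3 (0.0592).

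For NADPH supply, 12 of 18 listed genes were above the floor, of which 4 were higher and 1 lower (median 0.14). NNT, the transhydrogenase of the inner mitochondrial membrane, was at the floor in IPEC-1 and had 6.74, 7.36 and 7.60 in IPEC-J2. It was called (adjusted p 0.00268), but these signals lay under the level of 7.85, so no fold is given. The p of NNT also holds no measured spread of IPEC-1. ME2, a mitochondrial malic enzyme, had 8.33, 8.31 and 8.84 in IPEC-1 against 10.30, 11.10 and 10.29 in IPEC-J2 (difference 2.07, adjusted p 0.0154). This enzyme works mainly with NAD, so its part in NADPH supply is uncertain. ME1, the cytosolic malic enzyme, differed by 1.30 (adjusted p 0.0143) and TALDO1 of the pentose phosphate pathway by 0.58 (adjusted p 0.00905, and 0.0592 with the culture notes as a block). IDH2, the mitochondrial NADP-dependent isocitrate dehydrogenase, was lower with a difference of -0.68 (adjusted p 0.0177, and 0.0862 with the culture notes as a block). IDH2 was not called without IPEC-J2 replicate 2 or 3 (up to 0.0739), ME2 without IPEC-1 replicate 1 or 2 (up to 0.0574), and ME1 without IPEC-1 replicate 3 or IPEC-J2 replicate 3 (up to 0.0631).

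Of 16 listed NRF2 regulators, SQSTM1 had a value. This autophagy receptor, which binds the NRF2 inhibitor KEAP1, had 11.04, 11.29 and 11.07 in IPEC-1 against 11.89, 12.08 and 11.97 in IPEC-J2. The difference was 0.85 (adjusted p 0.00724, and 0.066 with the culture notes as a block). Among other NRF2-linked and iron genes 11 of 25 were above the floor, 1 higher and 2 lower (median 0.13). PIR, an iron-binding nuclear protein, differed by -1.63 (adjusted p 0.00782, 0.0599 with the block) and AKR1A1, an aldehyde reductase, by -0.81 (adjusted p 0.0398). FTH1, the ferritin heavy chain, was higher by 0.28 (adjusted p 0.0215, 0.0692 with the block). AKR1A1 kept its call in the fit without IPEC-1 replicate 1 alone (others up to 0.133), and FTH1 without IPEC-1 replicate 1 or 2 (others up to 0.0773).

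For repair and selenium genes, 38 symbols were listed, several of them older names of the same gene. Of these symbols 17 had a value and 16 were above the floor, 2 higher and 4 lower (median 0.22). QSOX1, a sulfhydryl oxidase of the secretory pathway, was higher by 1.18 (adjusted p 0.0425, 0.0762 with the block) as a mean over 3 probe sets, of which the brightest differed by 1.84 and another was at the floor throughout. MSRB3, a methionine sulfoxide reductase, was higher by 0.38 (adjusted p 0.00551, 0.0537 with the block), whereas MSRB2, its mitochondrial relative, had a difference of -1.02 (adjusted p 0.0278, 0.137 with the block) between signals under the levels of 7.85 and 7.78. PARK7, a redox-sensitive chaperone, differed by -0.64 (adjusted p 0.0146, 0.0564 with the block). QSOX1 kept its call without IPEC-1 replicate 2 (others up to 0.121), MSRB2 without IPEC-J2 replicate 3 (others up to 0.0932), and PARK7 lost it without IPEC-1 replicate 1 or IPEC-J2 replicate 2 or 3 (up to 0.0622).

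For superoxide sources and oxidase partners, 15 of 29 were above the floor (median 0.20) and ROMO1, a small protein of the inner mitochondrial membrane that modulates reactive oxygen species, was called (difference 0.39, adjusted p 0.0198). Its call was lost without IPEC-1 replicate 1 or IPEC-J2 replicate 1 or 3 (up to 0.0739). RAC1, the GTPase that joins NADPH oxidases with CYBA, differed by 0.48 and missed the threshold (adjusted p 0.0522). RAC2 and VAV1, oxidase partners of blood cells, were at the floor on all arrays.

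**Figure D4:**
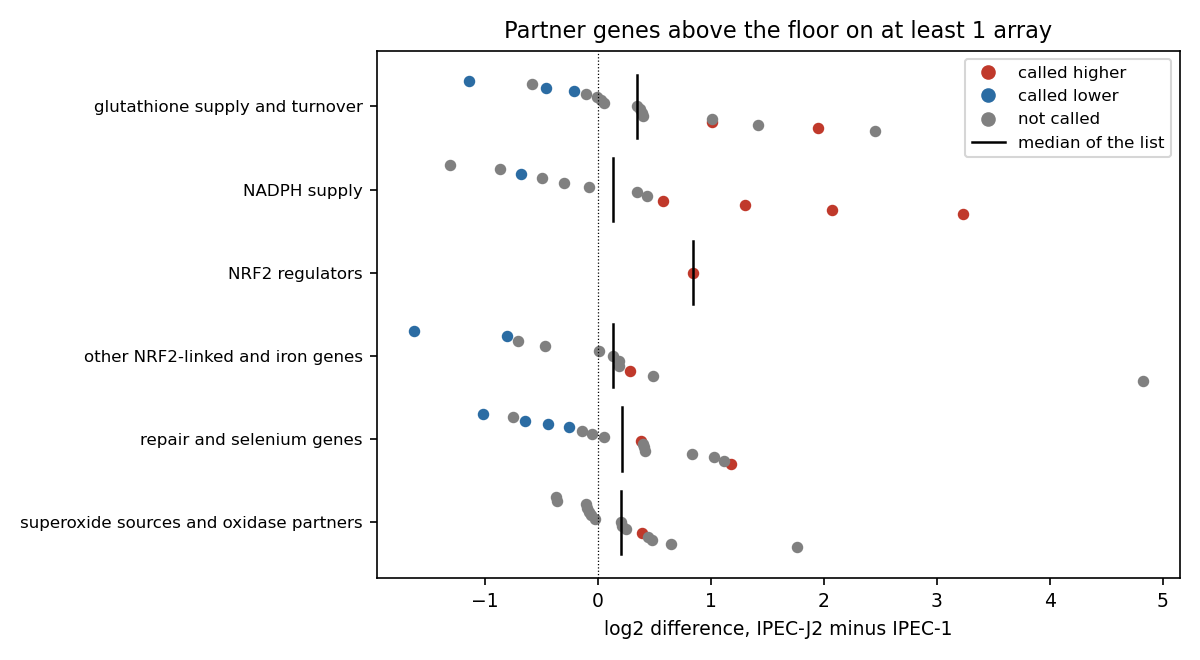
Log2 difference (IPEC-J2 minus IPEC-1) of the 72 partner genes above the floor on at least 1 array, by list, with the median of each list as a vertical line. Vertical position inside a list only separates the points, and medians run from 0.13 to 0.34 apart from the single NRF2 regulator at 0.85.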

How the data were processed

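Cell line and replicate came from the titles of the sample labels. The authors made the deposited log2 signals, 1 per probe set and array, with GCOS (1.1.1 in the submitters' processing notes) and PLIER. The methods name global scaling and background correction. How arrays were normalized to each other, and the log base, are not given in the sources used here. A floor of 4.00, the log2 of 16, was the reason to read the values as log2, and no further scaling was applied, so differences are relative to the overall level of the arrays. No detection calls were used, and 6 arrays limit the precision.

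Of 24123 probe sets, 124 controls were left out. The platform annotation gave 1 symbol for 10069, several for 198 and none for 13732. The means over probe sets of 1 symbol gave 6765 genes, 1252 of them without signal on any array. The test was limma 3.58.1 (lmFit and eBayes, R 4.3.3), with no block and Benjamini-Hochberg adjustment over the whole table, and was tested on simulated data. For a line at the floor, folds are given against a level of 7.85 (IPEC-1) or 7.78 (IPEC-J2). This level is the 95th percentile of signals on 1 array where the other 2 arrays of that line were at the floor. The methods describe independent experiments, and p-values measure the spread between these cultures. Where a line is at the floor, its spread was not measured, and the p rests on the other line and on limma.

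Arrays with a shared culture note deviated together from the means of their lines (correlation 0.193 for note A, 0.405 for note B and 0.259 for the other 2 arrays, over 4330 genes). The notes were therefore taken to pair the samples in the fits with the culture notes as a block, with the other 2 arrays as the third block. The main fit, from which the calls come, leaves this pairing out. Arrays with the same replicate number in the titles did not deviate together. Deviations sum to 0 in each line, so these correlations depend on each other. Note B joined the arrays with the most probe sets at the floor in each line (44.5% in IPEC-1 and 48.3% in IPEC-J2). The part of array level in the correlations was not tested.

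The 53 member genes and the lists were chosen with earlier results of these data known, as was the level. Named by rule were all called members, members with a difference of at least 1, and the called genes with the 2 largest differences per direction of each partner list. ME1, TALDO1, RAC1, RAC2, VAV1, MT1A and members not called are named in addition, after their values were seen. No sequences or coordinates were used. The alternatives were other summaries, scalings, filters and tests, both blocks, and leaving out each array.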

Additional observations from a re-analysis of the deposited data

How the results depend on the processing

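The replicate numbers of the titles were not taken to pair the samples (correlations of -0.19, -0.288 and 0.0497 between arrays of the same number). With them as a replicate block 272 genes were higher and 324 lower. Of the 53 described genes 4 were then higher and 2 lower, and of the partner genes 4 were higher and 2 lower. With the culture notes as a block the counts were 364 and 379 for all genes, 8 and 0 for members and 6 and 2 for partner genes; the difference of each gene is the same and 2 residual degrees of freedom remain in place of 4. As a random block they gave 6 members lower, beside 13.1% of all genes. With the arrays of notes A and B alone nothing was called by limma (0 in each count), while at an unadjusted p under 0.05 there were 671 genes higher and 870 lower, with 9 and 4 members and 12 and 10 partner genes. The methods' t-test at unadjusted p called 1154 genes lower, 9 members lower and 17 partner genes higher. With the brightest probe set per gene, and without genes of a mean under 5, 5 members were lower. The added lower members were GSTA4 and TXNL4A in both fits. The brightest probe set of GSTA4 differed by -0.93, where its mean over 2 probe sets, 1 of them at the floor throughout, differed by -0.47. The cause for TXNL4A, which has 1 probe set, was not tested. Over all genes in these fits 13.3% and 17% were lower. Leaving out 1 array gave 355 to 613 genes higher and 417 to 572 lower, 7 to 14 members higher and 1 to 4 lower, and 7 to 12 partner genes higher and 4 to 7 lower. Quantile normalization, 16 added on the linear scale, arrays centred on their 75th percentile, the trend and robust options, the adjusted t-test and the fit without floor genes left every one of these counts within 1.5 times. Dropping dead probe sets, chosen after the data were seen, did so too. Over the 19 named members and 20 settings, 294 of 380 comparisons kept direction and call, 85 lost the call, 1 (GSTK1) gained it and 0 changed sign. Signals at the floor set what can be seen: a gene at 4.00 in both lines may still differ.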

Other observations

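Signals that switched between the floor and a clear level among arrays of the same line were seen in several genes described above. GSTK1 read 7.88 on 1 array of IPEC-1 and the floor on the other 2, and the live probe set of TXNRD3 read 7.35, 4.00 and 7.45 in IPEC-1 against 4.00, 7.47 and 4.00 in IPEC-J2. MT1A, a metallothionein that binds zinc and copper, read 8.96, 4.00 and 4.00 in IPEC-1 against 10.44, 10.06 and 10.94 in IPEC-J2 (difference 4.83, adjusted p 0.115). Over all probe sets, 601 in IPEC-1 (2.5%) and 657 in IPEC-J2 (2.74%) were at the floor on 1 or 2 arrays of the line and at 7 or more on another.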
